A study of Mus musculus with 6 samples.

Results

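Solute carriers are membrane proteins that move amino acids, sugars, ions, metals, nucleosides and many other small molecules across the cell surface or the membranes of organelles. Their gene symbols begin with Slc followed by a family number, and members of one family usually share a kind of substrate. In lymphocytes, uptake of amino acids through carriers such as the Slc7a5 and Slc3a2 heterodimer feeds protein synthesis and the mTORC1 kinase, while zinc, magnesium and potassium carriers set ion levels inside the cell. The genes described here are the solute carriers expressed in natural killer (NK) cells of the mouse spleen. They were chosen by level, as rows whose gene name begins with Slc and whose FPKM (a fragment count corrected for transcript length and for library size) was at least 1 in at least 3 of 6 libraries. The glucose and lactate carriers Slc2a1, Slc2a3, Slc16a1 and Slc16a3 were left out by name. Of 315 Slc rows in a table of 27763 gene rows, 159 met this level, 3 of them were among the 4 left out, and 156 remained as members.

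All libraries came from poly(A) RNA of NK cells from the spleen of wild-type C57BL/6 mice aged 6 weeks, with no treatment named. They form 2 groups of 3 libraries each, named cNK and DN NK. Neither short name is spelled out in the labels, nor the surface markers used to sort the cells. The labels also do not say whether libraries came from separate mice. Each p-value sets the group difference against the spread between these libraries, which may be technical.

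Estimated counts summed to between 79798234 and 89526647 per library, worth about 19949558 to 22381662 read pairs. A principal component carrying 81.0% of the variance separated the 2 groups, and no library stood apart from its group on it. All 9 NK marker genes examined were present in both groups. Their summed FPKM was 4168 to 4254 in cNK and 2093 to 2379 in DN NK, and 8 of the 9 were lower in DN NK. Markers of other cell types were low beside these but often higher in DN NK. The 8 B cell markers summed to 1.06 to 1.36 FPKM in cNK and to 28.8 to 43.3 in DN NK, and 6 of 6 tested were higher. The 9 T cell markers summed to 12.7 to 15.1 and to 69.7 to 71.3, and 5 of 5 tested were higher. The 6 matched erythroid markers summed to 33.1 to 40.7 and to 42.5 to 60.7, with 3 of 4 tested higher. The 6 markers of ILC2 and ILC3 summed to 14.2 to 16.4 and to 23.4 to 25.6, with 3 of 3 tested higher and Il22 and Ccr6 at 0 in cNK. The 10 macrophage and monocyte markers summed to 6.62 to 7.51 and to 6.37 to 7.18, and the 1 that could be tested did not pass. All 4 matched neutrophil markers were at 0 in cNK and summed to 0.135 to 0.625 in DN NK, and 4 matched stromal and endothelial markers summed to 10.7 to 11.8 and to 14.6 to 15.5. The part of these cells in the solute carrier differences was not tested. In bulk RNA, fewer cells of a type and less RNA per cell cannot be told apart.

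The comparison between DN NK and cNK asked which carrier genes differ between the 2 NK populations. A positive log2 fold change means a higher level in DN NK. It was fitted with edgeR's quasi-likelihood test, with Benjamini-Hochberg adjustment over all 11690 rows at 1 FPKM or more in at least 3 libraries, and a gene passed at an adjusted p under 0.05. Of the 156 members, 64 rose in DN NK, 47 fell and 45 did not pass, so 71.2% were called. The groups differed widely: among all tested rows 61.7% were called, 30.8% higher and 30.9% lower. The higher share was 41% among members, above the background, and the lower share of 30.1% was near it. The median log2 fold change of members was 0.10, against -0.02 over all tested rows, and the 143 members at 1 FPKM or more in at least 1 library of both groups ranged from -1.72 to 1.93. At least 2-fold changes past the test were found in 19 members upward, against 7.9% of all rows, and in 6 members downward, against 4.69% of all rows. FPKM values of the groups did not overlap in 128 members, or 82.1%, against 70.3% of all rows. Summed over members, FPKM was 1546 ± 5.76 in cNK and 1882 ± 7.92 in DN NK (n = 3 each, SD), a ratio of 1.22, while the same ratio over all tested rows was 0.94. By substrate class the ratio was uneven, at 1.73 for amino acid carriers, 1.22 for the sugar class and 1.01 to 1.13 in other classes. The sugar class takes in the whole Slc35 family, some of whose members have unknown substrates or substrates other than sugars.

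**Figure D1:**
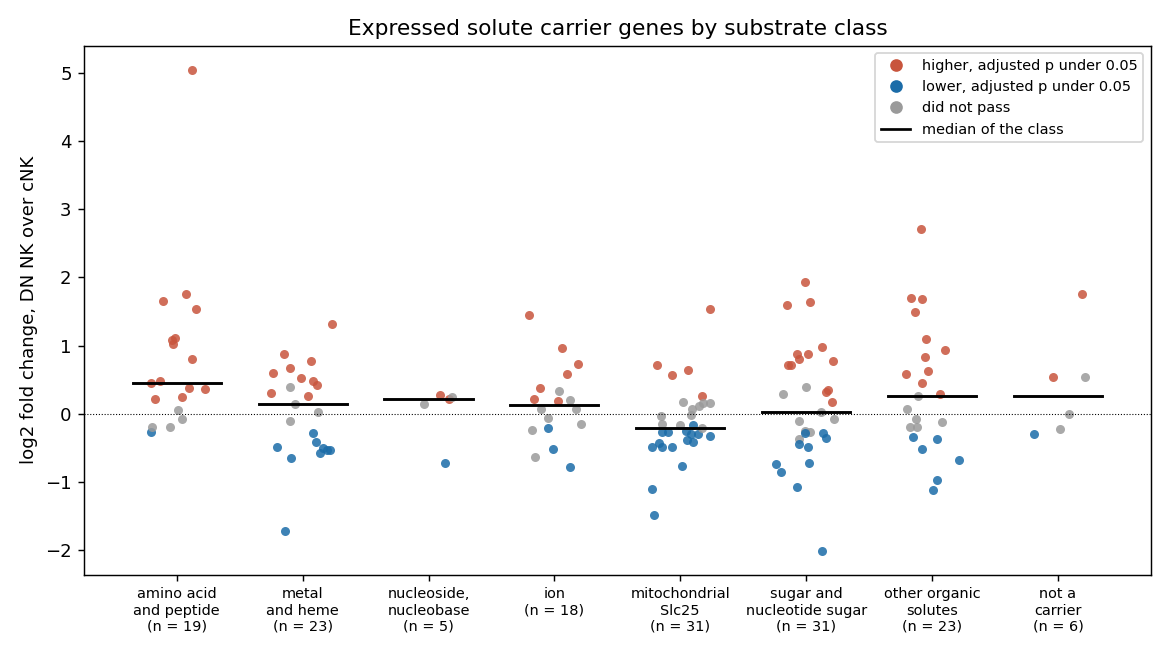
Log2 fold change (DN NK over cNK, vertical axis) of each of the 156 members, 1 point per gene, by substrate class; red points rose and blue points fell past an adjusted p of 0.05 (edgeR), grey points did not pass, and black bars are class medians. Most amino acid and peptide carriers lie above 0, with a median of 0.46, and most mitochondrial carriers of the Slc25 family lie below, with a median of -0.21.

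The level that admits a gene also admits genes that reach 1 FPKM in 1 group alone, and in those the groups could not overlap. A call did not follow from this, since Slc38a6, a member through cNK alone, did not pass. Of the members, 133 were at 1 FPKM or more in all 6 libraries and 143 in at least 1 library of both groups. The other members passed through one group: 8 through DN NK and 5 through cNK. Members through 1 group enter the counts above and below, and no difference from the background was tested. Among the 143, 56 rose, 43 fell and 44 did not pass, and 14 rose and 4 fell by at least 2-fold. Just inside the limit, with exactly 3 libraries at 1 FPKM, stood 13 members, among them Slc6a13, Slc16a10, Slc22a21, Slc25a13, Slc25a40, Slc27a1, Slc35a2, Slc35a5, Slc35f6, Slc37a2, Slc38a6 and Slc9a3r2. Just outside, with 1 or 2 libraries at that level, stood 7 Slc rows, among them Slc15a3, Slc29a2, Slc25a22 and Slc25a43. Levels were moderate in most members: 5 averaged at least 50 FPKM, 40 at least 10, and 87 under 5. Exons of 46 members overlapped another gene, by over 20% of their bases in 4, among them Slc39a7, Slc33a1 and Slc16a6. The library kit does not mark strand, so reads of overlapping genes cannot be told apart, and values of these 4 genes are uncertain.

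Carriers of amino acids and peptides were the class that moved most to one side. Of 19 members, 14 rose in DN NK, 1 fell and 4 did not pass, so 73.7% were higher and 5.26% lower, with a median log2 fold change of 0.46. With upper-quartile scaling 13 were higher and 3 lower. Among the 16 at 1 FPKM in both groups, 12 rose and 1 fell. The summed level of all 19 was 359.3, 325.3 and 328.1 FPKM in the cNK libraries and 596.7, 574.7 and 578.8 in DN NK. All 3 DN NK sums lay far above all 3 cNK sums, with means of 337.5 ± 18.9 and 583.4 ± 11.7 (n = 3 each, SD). Slc38a2, Slc3a2 and Slc38a1 made up 84.3% of the net difference of 245.9 FPKM. The other 16 genes still summed to 92.9 ± 2.01 in cNK and 131.6 ± 1.67 in DN NK (n = 3 each, SD).

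Slc3a2 encodes the CD98 heavy chain, which brings the Slc7 light chains to the cell surface. Its level was 100.2, 80.4 and 92.5 FPKM in cNK and 187, 186 and 185 in DN NK. The DN NK libraries were nearly identical and all above cNK, a log2 fold change of 1.09 ± 0.08 SE (edgeR adjusted p = 1.6e-05), or 2.13-fold. Slc7a5 (LAT1), the light chain for large neutral amino acids such as leucine, stood at 6.67, 5.17 and 5.25 FPKM in cNK and 19.4, 19.3 and 17 in DN NK. This was a 3.40-fold rise, with a log2 fold change of 1.76 ± 0.12 SE (edgeR adjusted p = 1.69e-05). Its groups lay far apart. Slc7a1 (CAT1) carries cationic amino acids such as arginine without a heavy chain, and its level was 6.90, 5.70 and 6.18 FPKM in cNK and 19.7, 18.8 and 18.1 in DN NK. It rose 3.13-fold, with a log2 fold change of 1.65 ± 0.08 SE (edgeR adjusted p = 2.35e-06). The remaining Slc7 member, Slc7a6 (y+LAT2), another partner of Slc3a2, moved less, from 6.98, 6.92 and 7.25 FPKM to 8.75, 8.76 and 8.95, a log2 fold change of 0.38. All 3 Slc7 members therefore rose, by very different amounts.

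**Figure D2:**
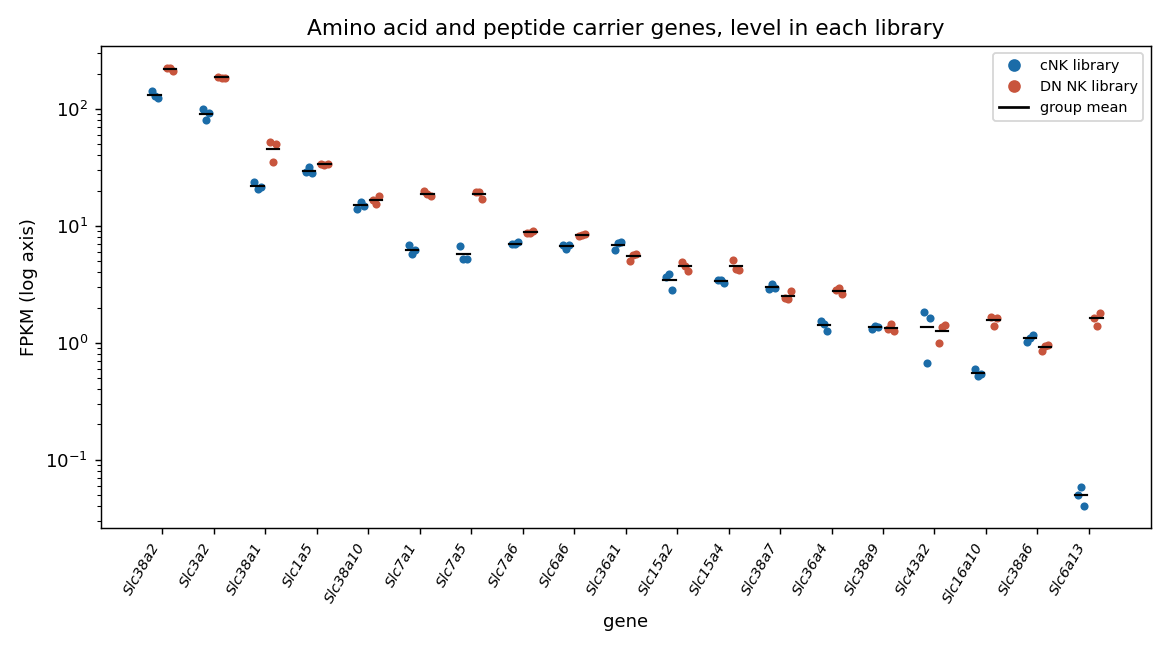
FPKM of the 19 amino acid and peptide carrier genes in each library, on a log axis, ordered by mean level; blue points are cNK libraries, red points DN NK libraries, and bars are group means. Slc38a2 and Slc3a2 lead in both groups, and Slc7a1 and Slc7a5 show wide gaps between groups, near 6 and near 19 FPKM.

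The most abundant gene of the class, Slc38a2, belongs with Slc38a1 to the sodium-coupled carriers of small neutral amino acids. Slc38a2 (SNAT2) was at 143, 129 and 123 FPKM in cNK and at 224, 224 and 213 in DN NK. It rose 1.74-fold without overlap, a log2 fold change of 0.80 ± 0.07 SE (edgeR adjusted p = 2.49e-05). Slc38a1 (SNAT1), its neighbour on the chromosome, was at 23.7, 20.6 and 21.5 FPKM in cNK and at 51.9, 34.9 and 50.4 in DN NK. DN NK replicate 2 was the lowest of its group and still above every cNK library, and the log2 fold change was 1.12 ± 0.17 SE (edgeR adjusted p = 0.00253). Slc1a5 (ASCT2), a glutamine exchanger, stood above Slc38a1 in cNK but rose little, from 28.6, 31.9 and 28.4 FPKM to 34, 33.4 and 34, a log2 fold change of 0.25 (adjusted p = 0.00322, edgeR). Of the other Slc38 members, Slc38a6, Slc38a7 and Slc38a9 did not pass. Slc38a10 rose by a log2 fold change of 0.22 with overlapping groups, and this call was lost in 8 of 15 alternative analyses, among them those without cNK replicates 1 or 3 or without DN NK replicates 1 or 3 (adjusted p from 0.00715 to 0.117 over the 15).

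Among the remaining members, Slc6a6 (the taurine carrier) rose from 6.90, 6.36 and 6.83 FPKM to 8.14, 8.32 and 8.44. Slc36a4, a carrier of proline and tryptophan, rose from 1.54, 1.44 and 1.27 FPKM to 2.82, 2.91 and 2.59, a log2 fold change of 1.03. The peptide and histidine carrier Slc15a4 of the endolysosome rose from 3.44, 3.45 and 3.26 FPKM to 5.10, 4.25 and 4.18, a log2 fold change of 0.48. Both groups were apart in each of these genes. Slc15a2, a peptide carrier of the cell surface, rose by a log2 fold change of 0.46, a call lost without DN NK replicate 1 (adjusted p from 0.000858 to 0.0593 over the 15 alternatives). Slc6a13, a carrier of GABA and taurine, was close to 0 in cNK, at 0.0498, 0.0588 and 0.0401 FPKM, and reached 1.64, 1.40 and 1.80 in DN NK. The aromatic amino acid carrier Slc16a10 went from 0.601, 0.522 and 0.542 FPKM to 1.65, 1.39 and 1.62. These 2 genes are members through DN NK alone, so their differences are given as levels. The only member that fell was Slc36a1 (PAT1), an amino acid and proton carrier of lysosomes, from 6.25, 7.18 and 7.23 FPKM to 5.01, 5.67 and 5.80. Its log2 fold change was -0.26 (adjusted p = 0.0144, edgeR), and without cNK replicate 3 it no longer passed (adjusted p = 0.0530, range 0.0039 to 0.0530 over the 15 alternatives).

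On the GRCm38 build, Slc38a1 (ENSMUSG00000023169) lies on the minus strand at chr15:96571418-96642913 and Slc38a2 (ENSMUSG00000022462) on the same strand at chr15:96687394-96699698, with 44480 bases between them. Slc3a2 (ENSMUSG00000010095) lies at chr19:8706882-8723369, Slc7a1 (ENSMUSG00000041313) at chr5:148327410-148399904 and Slc7a5 (ENSMUSG00000040010) at chr8:121881150-121907694, all on the minus strand. FPKM values cover the whole gene, exons of all its transcripts.

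Genes that sense or respond to amino acid supply were counted beside the carriers. Of 24 listed, 22 matched a row and 19 were tested, of which 11 rose, 3 fell and 5 did not pass. Among all tested rows 30.8% were higher and 30.9% lower. Trib3, a target of the transcription factor ATF4, was at 0.0862, 0.230 and 0.237 FPKM in cNK and 2.07, 2.38 and 1.98 in DN NK, and entered the test through DN NK alone. Odc1, the first enzyme of polyamine synthesis, rose from 38.6, 31.8 and 33.5 FPKM to 283, 246 and 256, a log2 fold change of 2.98. Mthfd2, a mitochondrial enzyme of the folate cycle, rose from 1.59, 1.86 and 1.64 FPKM to 5.63, 5.73 and 4.82, a log2 fold change of 1.73. Odc1 and Mthfd2 were higher in 3 of 3 DN NK libraries and passed in all alternatives that kept them. The median of the 19 was 0.37.

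Carriers of metals and heme changed often and in both directions. Zinc leaves the cytosol through Slc30 (ZnT) proteins and enters it through Slc39 (ZIP) proteins, Slc41 carries magnesium, Slc31 copper, Slc11a2 iron and Slc48a1 heme. Of 23 members, 10 rose, 9 fell and 4 did not pass, so 82.6% were called, 43.5% higher and 39.1% lower. All 23 were at 1 FPKM in both groups, and the class median was 0.15. Of the 6 Slc30 members 3 rose and 2 fell. Of the 10 Slc39 members 4 rose and 3 fell.

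The upstream sequences of 2 zinc exporters are shown, because Slc30a1 is a textbook target of the metal-sensing factor MTF-1 and Slc30a4 rose most in the class. RefSeq start sites on GRCm38.p6 were found for 116 of 156 members, and the 250 bases before each start were searched on both strands for TGCACNC and TGCGCNC, the 2 spellings of the core bound by MTF-1. Either spelling occurred in 23.8% of 27025 genes, and in 33.6% of the 116 members. By class it occurred in 9 of 18 metal carriers, 9 of 14 carriers of other organic solutes, 4 of 10 ion carriers and 0 of 15 amino acid carriers with a start site. Among metal carriers it occurred in 3 of 6 that rose and in 4 of 8 that fell. A match is a description of the letters, not a binding site. The windows are chr1:191906531-191906780 on the plus strand for Slc30a1, with 1 match beginning 43 bases before the start, and chr2:122702664-122702913 on the minus strand for Slc30a4, with 2 matches beginning 228 and 92 bases before it. Both run 5′ to 3′ in the direction of the gene, and capitals mark the matches, all of which lie on the other strand.
Slc30a1: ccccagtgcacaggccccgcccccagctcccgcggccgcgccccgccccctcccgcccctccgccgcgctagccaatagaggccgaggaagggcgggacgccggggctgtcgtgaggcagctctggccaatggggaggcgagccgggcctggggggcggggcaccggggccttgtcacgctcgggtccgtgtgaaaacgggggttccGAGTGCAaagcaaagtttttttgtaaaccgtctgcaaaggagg
Slc30a4: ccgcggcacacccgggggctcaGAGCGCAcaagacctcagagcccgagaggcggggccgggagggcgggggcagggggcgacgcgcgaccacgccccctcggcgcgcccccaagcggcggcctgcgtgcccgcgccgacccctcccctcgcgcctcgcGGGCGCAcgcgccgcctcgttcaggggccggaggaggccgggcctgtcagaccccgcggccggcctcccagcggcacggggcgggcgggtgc
The same windows were searched for TGATGNAA, a core of the element bound by ATF4. It was present in 3.91% of all genes and in 0 of 15 amino acid carriers. At so low a rate 15 genes are too few to tell 0 from the background, and bases after the start were not searched. The E-box CACGTG was present in 6.86% of all genes and in 2 of 15 amino acid carriers. Neither was among the 10 that rose and had a start site.

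Slc30a4 (ZnT4), which loads zinc into vesicles, was at 1.42, 1.6 and 1.76 FPKM in cNK and at 4.09, 3.80 and 3.57 in DN NK. It rose 2.50-fold, a log2 fold change of 1.32 ± 0.10 SE (edgeR adjusted p = 1.27e-05), without overlap. The cell surface exporter Slc30a1 (ZnT1) moved little, from 4.04, 4.74 and 4.35 FPKM to 5.57, 5.19 and 4.79. The log2 fold change was 0.31 (adjusted p = 0.0134, edgeR), and the call was lost without DN NK replicate 1 and with limma on FPKM at either pseudocount (adjusted p from 0.00337 to 0.0563 over the 15 alternatives). Slc30a9 rose by a log2 fold change of 0.26. Slc30a6 and Slc30a7, which supply zinc to the early secretory pathway, fell by 0.64 and 0.54 on the log2 scale. Slc30a5, the partner of Slc30a6, had a log2 fold change of 0.39 that did not pass (adjusted p = 0.0845, edgeR).

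**Figure D3:**
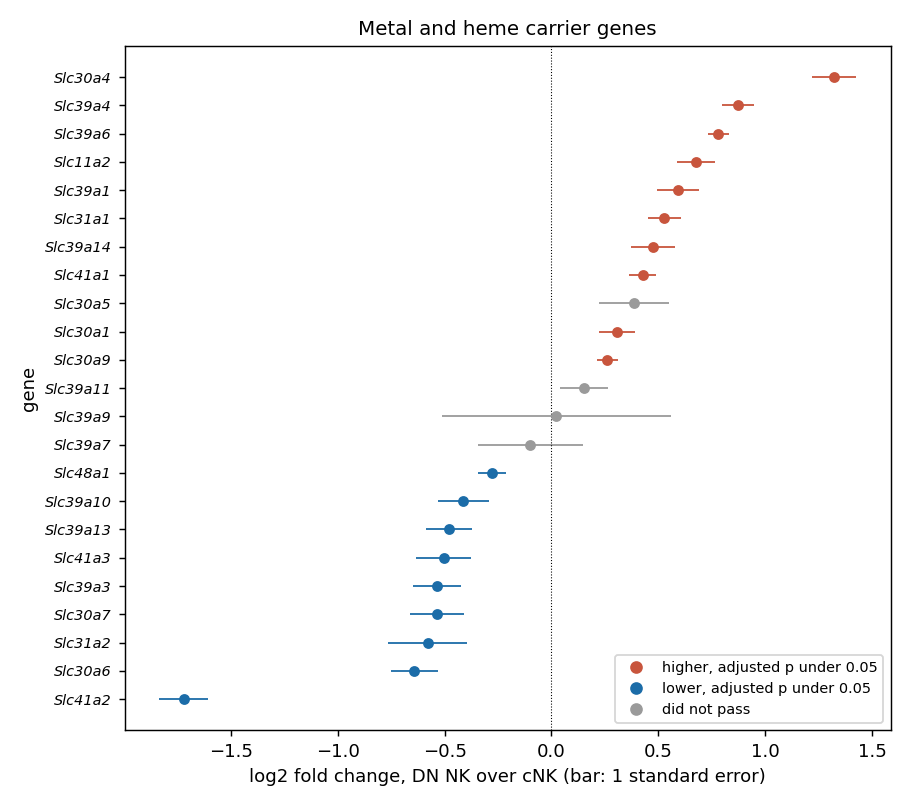
Log2 fold change (DN NK over cNK, horizontal axis) of the 23 metal and heme carrier genes with bars of 1 standard error; red rose and blue fell past an adjusted p of 0.05 (edgeR), grey did not pass. Slc30a4 stands highest at 1.32 and Slc41a2 lowest at -1.72, and the wide bars of Slc39a9 and Slc39a7 go with 1 deviating library each.

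Among zinc importers, Slc39a4 (ZIP4) rose from 5.17, 4.85 and 4.95 FPKM to 8.61, 8.61 and 9.07, a log2 fold change of 0.87. Slc39a6 (ZIP6) rose from 7.70, 7.70 and 7.76 FPKM to 12.7, 12.8 and 12.6, a log2 fold change of 0.78. Slc39a1 (ZIP1), one of the 2 most abundant importers, rose from 19.9, 15.5 and 16.5 FPKM to 24.9, 24.9 and 25.2, a log2 fold change of 0.59. In each of the 3 the groups were clearly apart and the DN NK libraries close together. Slc39a14 also rose, by 0.48. Slc39a3 and Slc39a13 fell by 0.54 and 0.48 on the log2 scale. Slc39a10 (ZIP10) went from 2.04, 2.77 and 2.76 FPKM to 1.81, 1.74 and 1.89, a log2 fold change of -0.41 (adjusted p = 0.016, edgeR). That call was lost without cNK replicate 2 or without cNK replicate 3 (adjusted p 0.0556 and 0.0612, range 0.00151 to 0.0612 over the 15 alternatives). Slc39a7, an importer of the endoplasmic reticulum, was at 19.9, 21.8 and 20.7 FPKM in cNK and at 14.8, 14.9 and 26.3 in DN NK. DN NK replicate 3 stood apart, and without it the log2 fold change was -0.42 (adjusted p = 0.000879, edgeR; range 0.000879 to 0.933 over the alternatives), while with it the gene did not pass. The gene Gm20427 covers 80.7% of its exon bases. For Slc39a9 the deviating library was cNK replicate 3, at 1.22 FPKM beside 3.89 and 4.81.

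The magnesium carriers split. Slc41a2 was at 3.32, 3.85 and 3.72 FPKM in cNK and at 1.14, 1.10 and 0.916 in DN NK, 3.29-fold lower, with a log2 fold change of -1.72 ± 0.11 SE (edgeR adjusted p = 6.04e-06). Slc41a3 fell by 0.50 on the log2 scale, while Slc41a1, the most abundant of the 3, rose from 7.20, 7.59 and 7.06 FPKM to 8.64, 9.74 and 9.77, a log2 fold change of 0.43. The high-affinity copper importer Slc31a1 (CTR1) rose from 2.76, 3.06 and 2.78 FPKM to 4.0, 3.99 and 3.91, a log2 fold change of 0.53. Its neighbour Slc31a2, 62315 bases away on the same strand of chromosome 4, fell by 0.58 on the log2 scale. That call was lost without cNK replicate 3 and without either of DN NK replicates 2 and 3 (adjusted p from 0.0128 to 0.0851 over the 15 alternatives). Slc11a2 (DMT1), which takes up ferrous iron, rose from 5.56, 4.85 and 5.36 FPKM to 8.01, 7.27 and 8.91, a log2 fold change of 0.68. The heme carrier Slc48a1, at 11, 12.4 and 12.5 FPKM in cNK, fell to 8.98, 9.46 and 9.94, a log2 fold change of -0.28. The iron exporter Slc40a1 and the phagosomal carrier Slc11a1 did not reach the level for members, with means of 0.097 and 0.122 FPKM in cNK and of 0.048 and 0.351 in DN NK.

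Other genes of metal handling also moved both ways. Of 16 listed, 15 matched and 14 were tested, with 7 higher, 4 lower and 3 that did not pass. Among all tested rows 30.8% were higher and 30.9% lower. Steap3, a ferrireductase of endosomes, was at 1.68, 1.85 and 1.75 FPKM in cNK and 0.207, 0.267 and 0.260 in DN NK, and entered the test through cNK alone. The metal-binding metallothionein Mt1 rose from 2.47, 2.49 and 2.04 FPKM to 6.48, 5.89 and 5.37, a log2 fold change of 1.40. Mt2 rose from 1.46, 1.05 and 1.14 FPKM to 2.44, 2.48 and 3.01, a log2 fold change of 1.17. Both metallothioneins were thus higher in all DN NK libraries.

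Of 5 members that carry nucleosides, nucleobases or nucleotides, 2 rose, 1 fell and 2 did not pass, and with upper-quartile scaling 1 rose and 1 fell. The concentrative purine nucleoside carrier Slc28a2 (CNT2) was the most abundant, at 20.6, 21.5 and 21.0 FPKM in cNK and 23.6, 22.4 and 24.2 in DN NK. Its rise was small though without overlap, a log2 fold change of 0.21 (adjusted p = 0.00379, edgeR). Slc29a3 (ENT3), the nucleoside carrier of lysosomes, fell from 2.73, 2.86 and 3.0 FPKM to 1.40, 1.63 and 1.94, a log2 fold change of -0.73 ± 0.12 SE (edgeR adjusted p = 0.000714). Slc17a9, which fills vesicles with ATP, rose from 3.96, 3.86 and 4.22 FPKM to 4.44, 4.73 and 4.84, a log2 fold change of 0.28. That call was lost without cNK replicate 2, with upper-quartile scaling and with no filter (adjusted p from 0.00296 to 0.0802 over the 15 alternatives). The equilibrative carrier Slc29a1 (ENT1) was at 4.23, 4.41 and 4.88 FPKM in cNK and 3.88, 4.97 and 5.53 in DN NK, with overlapping groups. It did not pass (adjusted p = 0.324, edgeR), but did without DN NK replicate 1 (adjusted p = 0.0432, range 0.0432 to 0.802 over the alternatives). Slc43a3, a purine nucleobase carrier, did not pass either (log2 fold change 0.24, adjusted p = 0.0601, edgeR); it passed with DESeq2 and without DN NK replicate 3 (adjusted p 0.0404 and 0.0494, range 0.0404 to 0.214).

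Among 16 genes of nucleoside salvage and breakdown, 14 were tested: 4 rose, 5 fell and 5 did not pass. These counts are near the 30.8% higher and 30.9% lower among all tested rows. Nt5e (CD73), which makes adenosine outside the cell, was at 1.5, 1.77 and 1.69 FPKM in cNK and 0.534, 0.515 and 0.473 in DN NK, and entered the test through cNK alone. Samhd1, a dNTP hydrolase, fell from 20.5, 22.4 and 22.3 FPKM to 7.81, 8.90 and 9.16, a log2 fold change of -1.27. Uridine phosphorylase Upp1 was near 0 in cNK, at 0.0186, 0.0391 and 0 FPKM, and at 2.43, 2.64 and 2.57 in DN NK. It entered the test through DN NK alone.

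Carriers of inorganic ions were called about as often as all tested rows. Of 18 members, 7 rose, 3 fell and 8 did not pass, 55.6% called, with a median of 0.13. With upper-quartile scaling 5 rose and 7 fell, and with no filter or with limma 5 rose and 5 fell. The balance of directions in this class thus differed between analyses, and the cause was not tested. With upper-quartile scaling all tested rows also leaned downward, 3104 higher and 4373 lower. The sodium, potassium and chloride cotransporter Slc12a2 (NKCC1), which brings chloride into the cell, was at 1.87, 1.80 and 1.74 FPKM in cNK and 4.73, 4.71 and 4.68 in DN NK. It rose 2.72-fold with very little spread, a log2 fold change of 1.45 ± 0.07 SE (edgeR adjusted p = 1.09e-06). Slc12a7 (KCC4), a relative that carries potassium and chloride out, fell from 6.32, 6.67 and 6.30 FPKM to 4.17, 4.28 and 4.55, a log2 fold change of -0.51 ± 0.05 SE (edgeR adjusted p = 4.54e-05). Slc12a4 and Slc12a9 did not pass.

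The bicarbonate importer Slc4a7 (NBCn1) rose from 2.35, 2.59 and 2.08 FPKM to 4.48, 4.43 and 4.26, a log2 fold change of 0.97 ± 0.08 SE (edgeR adjusted p = 2.07e-05). Slc4a2, an exchanger of chloride and bicarbonate, fell by 0.21 on the log2 scale. The phosphate importer Slc20a1 (PiT1), the most abundant ion carrier, rose from 33.4, 32.3 and 39.2 FPKM to 50.5, 53.2 and 47.6, a log2 fold change of 0.59, while its relative Slc20a2 did not pass. In all of these except Slc20a2 the groups did not overlap. Slc9a7, a sodium and proton exchanger of the Golgi, fell from 6.58, 6.98 and 6.84 FPKM to 3.63, 4.06 and 3.72, a log2 fold change of -0.78 ± 0.07 SE (edgeR adjusted p = 3.15e-05). Slc26a10 and Slc26a11 rose by log2 fold changes of 0.73 and 0.38.

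Pumps, channels and regulators of cell volume moved both ways. Of 19 listed, 18 were tested, with 7 higher, 7 lower and 4 that did not pass. Among all tested rows 30.8% were higher and 30.9% lower. Stk39 (SPAK), a kinase that activates Slc12a2 and inhibits the outward Slc12 carriers, rose from 6.52, 6.30 and 6.51 FPKM to 17.6, 17.3 and 18.3, a log2 fold change of 1.52. The potassium channel Kcnn4, at 2.64, 2.33 and 2.47 FPKM in cNK and 0.164, 0.398 and 0.423 in DN NK, entered the test through cNK alone. Lrrc8d, a subunit of volume-regulated anion channels, was at 1.05, 1.26 and 1.31 FPKM in cNK and at 2.18, 8.67 and 9.03 in DN NK, where replicate 1 was far below the other 2. Its log2 fold change of 2.51 (adjusted p = 0.0221, edgeR) was lost without any 1 of the cNK libraries, without DN NK replicates 2 or 3, with no filter and with the replicate block (adjusted p 0.0538 to 0.0825 in these 7).

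Carriers of the mitochondrial Slc25 family exchange nucleotides, phosphate, amino acids and metabolites of the citric acid cycle across the inner mitochondrial membrane. They moved mostly downward: of 31 members, 16 fell, 5 rose and 10 did not pass, 51.6% lower and 16.1% higher, with a median of -0.21. Of the 29 at 1 FPKM in both groups, 15 fell and 4 rose. The summed level was nevertheless about the same, 518.1 ± 10.3 FPKM in cNK and 524.4 ± 2.12 in DN NK (n = 3 each, SD), and 2 of the abundant members rose. The phosphate carrier Slc25a3, which supplies ATP synthase, was at 85, 81.5 and 76.8 FPKM in cNK and 135, 126 and 124 in DN NK. It rose 1.65-fold, a log2 fold change of 0.72 ± 0.06 SE (edgeR adjusted p = 2.39e-05). Slc25a36, a pyrimidine nucleotide carrier, rose 2.92-fold, from 16.8, 12.6 and 13.9 FPKM to 43.6, 38.8 and 38.9, a log2 fold change of 1.54 ± 0.13 SE (edgeR adjusted p = 0.000103). Both genes had groups well apart.

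**Figure D4:**
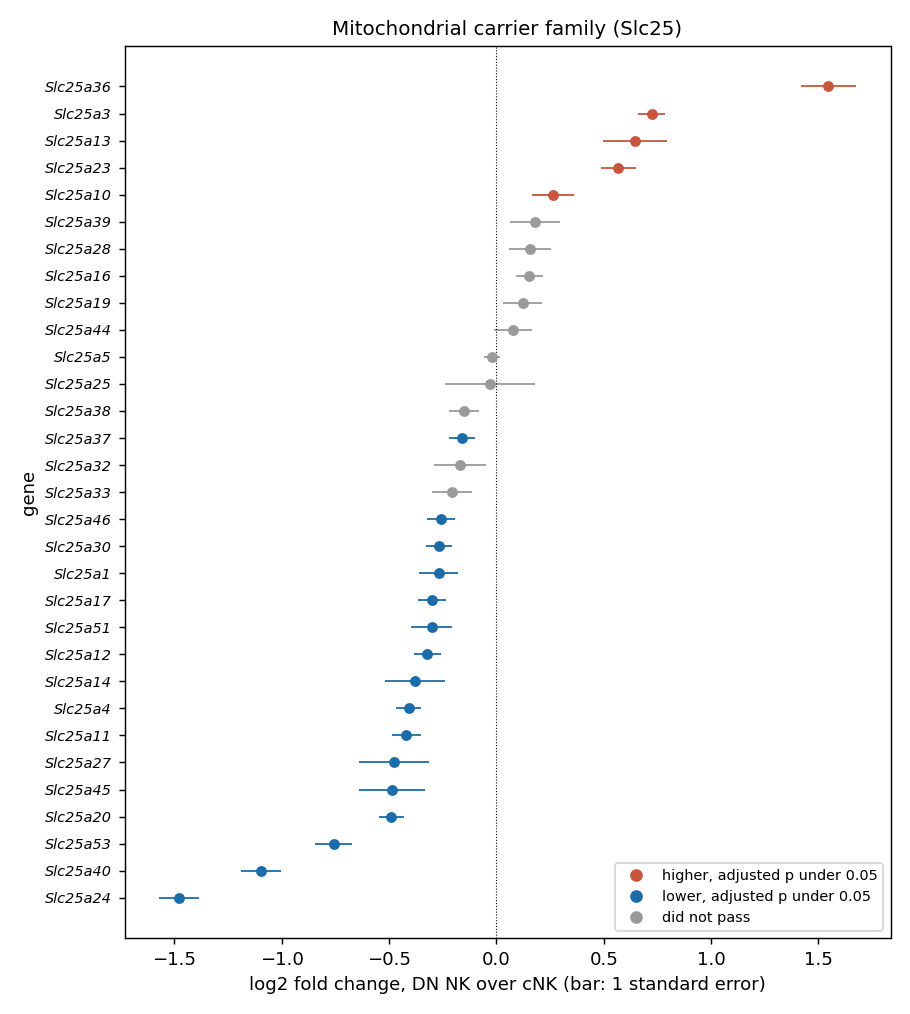
Log2 fold change (DN NK over cNK, horizontal axis) of the 31 Slc25 genes with bars of 1 standard error; red rose and blue fell past an adjusted p of 0.05 (edgeR), grey did not pass. Slc25a36 stands alone at 1.54, Slc25a24 lies lowest at -1.48, and most others sit between -0.5 and 0.2.

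The ADP/ATP carriers Slc25a5 (ANT2) and Slc25a4 (ANT1) differed in behaviour. Slc25a5, the most abundant Slc25 gene, was at 167, 170 and 169 FPKM in cNK and 155, 163 and 161 in DN NK. Its log2 fold change was -0.02 after TMM scaling (adjusted p = 0.67, edgeR), and it passed as lower with upper-quartile scaling, at -0.11 (adjusted p = 0.0425, range 0.0425 to 0.871 over the alternatives). Slc25a4 fell from 20.4, 23.2 and 21.0 FPKM to 15.1, 15.7 and 15.9, a log2 fold change of -0.41 (adjusted p = 0.000407, edgeR). The ATP-Mg/phosphate carrier Slc25a24 was at 22.4, 27.9 and 25.9 FPKM in cNK and 8.07, 9.62 and 8.47 in DN NK. It fell the most, 2.79-fold, with a log2 fold change of -1.48 ± 0.09 SE (edgeR adjusted p = 4.3e-06). Slc25a23, a paralogue with the same substrates, rose from 1.73, 1.84 and 1.71 FPKM to 2.47, 2.49 and 2.52, a log2 fold change of 0.57.

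The oxoglutarate and malate carrier Slc25a11 fell from 22, 24.8 and 24.7 FPKM to 15.9, 17 and 18.4, a log2 fold change of -0.42. The aspartate and glutamate carrier Slc25a12 fell from 7.02, 7.33 and 7.13 FPKM to 5.07, 5.91 and 5.49, a log2 fold change of -0.32. The carnitine and acylcarnitine carrier Slc25a20 fell from 8.04, 8.26 and 8.30 FPKM to 5.28, 5.83 and 5.69, a log2 fold change of -0.49. In these 3 genes every DN NK library lay below every cNK library. The citrate carrier Slc25a1 went from 7.67, 7.07 and 6.60 FPKM to 5.69, 5.81 and 5.46, a log2 fold change of -0.27 (adjusted p = 0.0309, edgeR). This call was lost in 4 of the 6 analyses that leave out 1 library, those without cNK replicates 1 or 2 and without DN NK replicates 1 or 3 (range 0.0073 to 0.105 over the 15 alternatives). Slc25a51, the NAD carrier, and Slc25a17 of peroxisomes each fell by 0.30 on the log2 scale. The Slc25a51 call was lost without cNK replicates 2 or 3 or DN NK replicate 3 (adjusted p from 0.00239 to 0.0767 over the 15 alternatives). Slc25a53 fell by 0.76. The dicarboxylate carrier Slc25a10 was called higher, with a log2 fold change of 0.26 and overlapping groups. That call was lost in 10 of 15 alternatives, including each analysis that leaves out 1 library except that without DN NK replicate 1 (adjusted p from 0.0278 to 0.197). Slc25a40, a glutathione carrier, had cNK levels of 1.24, 1.38 and 1.28 FPKM and DN NK levels of 0.565, 0.584 and 0.592, and is a member through cNK alone. Slc25a13, the other aspartate and glutamate carrier, is a member through DN NK alone, at 0.665, 0.871 and 0.736 FPKM and at 1.22, 1.15 and 1.03.

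Genes of mitochondrial import and calcium uptake, of which 17 of 17 were tested, had 3 higher, 7 lower and 7 that did not pass, where 30.8% of all rows were higher and 30.9% lower. The serine carrier Sfxn3 fell from 40.6, 43.4 and 44.4 FPKM to 17.2, 18.1 and 20.7, a log2 fold change of -1.14. Micu2, a regulator of the calcium uniporter, fell from 23.1, 25.9 and 25.4 FPKM to 11.7, 12.4 and 13.9, a log2 fold change of -0.91. Timm23, a channel for imported proteins, rose from 9.47, 9.69 and 12.4 FPKM to 13.8, 19.5 and 19.2, a log2 fold change of 0.79. Slc25a36, Slc25a3 and Slc25a24 lie on GRCm38 at chr9:97074961-97111157 (minus strand), chr10:91116574-91124059 (minus) and chr3:109123149-109168457 (plus).

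The sugar and nucleotide sugar carriers include hexose carriers of the cell surface and lysosome, glucose 6-phosphate carriers (Slc37) and the Slc35 family, most of whose known members bring nucleotide sugars into the Golgi and endoplasmic reticulum. Of 31 members, 13 rose, 10 fell and 8 did not pass, with a median of 0.02. Of the 27 at 1 FPKM in both groups, 12 rose and 7 fell, with a median of 0.18. The class had a summed level of 201.7 FPKM in cNK and 246.9 in DN NK. Its 21 Slc35 genes, which include orphan carriers and carriers of ATP and PAPS, summed to 138.9 in cNK and 182.1 in DN NK. Slc35e1, an orphan carrier and the most abundant of the class, accounted for much of the gain, from 37.3, 31.8 and 34.7 FPKM to 60.3, 61.0 and 61.6. The fitted log2 fold change was 0.88 ± 0.07 SE (edgeR adjusted p = 1.1e-05), with the groups well apart. Its relative Slc35e2 rose 3.81-fold, from 2.09, 1.19 and 2.03 FPKM to 7.13, 6.07 and 6.20, a log2 fold change of 1.93 ± 0.24 SE (edgeR adjusted p = 0.00102). Slc35e3 and Slc35e4, in contrast, fell by 0.86 and 0.72 on the log2 scale.

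Slc35f5, another orphan, rose 3.12-fold, from 4.0, 3.24 and 4.02 FPKM to 11.3, 11.8 and 10.6, a log2 fold change of 1.64 ± 0.10 SE (edgeR adjusted p = 4.93e-06). Slc2a6, a hexose carrier of lysosomes, rose 3.03-fold, from 5.11, 3.56 and 3.87 FPKM to 13.2, 11.6 and 11.7, a log2 fold change of 1.6 ± 0.15 SE (edgeR adjusted p = 8.58e-05). Neither gene had overlapping groups. Slc35b1, the ATP carrier of the endoplasmic reticulum, rose from 11, 10.1 and 10.5 FPKM to 19.3, 17.2 and 19.4, a log2 fold change of 0.88. Slc35b2, which brings the sulfate donor PAPS into the Golgi, rose from 16.3, 13.4 and 14.2 FPKM to 23, 23.6 and 22.4, a log2 fold change of 0.71.

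Slc35d2, a Golgi carrier of UDP-N-acetylglucosamine, fell from 5.05, 5.51 and 5.76 FPKM to 2.19, 2.44 and 2.78, a log2 fold change of -1.07 ± 0.10 SE (edgeR adjusted p = 3.8e-05). Slc50a1, a sugar carrier and the second most abundant gene of the class, fell from 29.3, 31.4 and 29.4 FPKM to 21.8, 24.6 and 24.8, a log2 fold change of -0.28. Slc35a3 and Slc35b4, both nucleotide sugar carriers, fell by 0.28 and 0.44 on the log2 scale. The sialic acid carriers Slc35a1, for CMP-sialic acid, and Slc17a5, of lysosomes, did not pass. Slc37a2, a glucose 6-phosphate and phosphate exchanger, had the lowest log2 fold change of any member. It was at 2.50, 3.82 and 2.42 FPKM in cNK and at 0.726, 0.834 and 0.512 in DN NK, and is a member through cNK alone, while the lowest among members in both groups was that of Slc41a2. Its relatives Slc37a1 and Slc37a3 rose by log2 fold changes of 0.36 and 0.32, and Slc37a4 fell by 0.36.

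The 23 carriers of other organic solutes (fatty acids, carnitine, vitamins, choline, urea and organic anions among them) comprised 11 that rose, 6 that fell and 6 that did not pass. Of the 20 at 1 FPKM in both groups, 8 rose and 6 fell. A pair of organic anion carriers rose: Slco3a1 from 0.927, 1.31 and 1.13 FPKM to 3.49, 3.70 and 3.18, and Slco4a1 from 0.977, 0.971 and 1.06 FPKM to 2.83, 2.88 and 2.44, with log2 fold changes of 1.68 and 1.5. The carnitine importer Slc22a5 (OCTN2) was at 7.49, 7.04 and 7.28 FPKM in cNK and 13.7, 12.7 and 13.6 in DN NK, a log2 fold change of 0.94 ± 0.06 SE (edgeR adjusted p = 6.43e-06). Slc22a21, a carnitine carrier 58304 bases away on chromosome 11, was at 0.998, 0.937 and 0.908 FPKM and at 1.66, 1.61 and 1.6, a member through DN NK alone. Vitamin carriers rose where they passed: Slc23a2, for ascorbate, from 3.98, 3.98 and 4.15 FPKM to 5.63, 5.91 and 5.90, and Slc19a2, for thiamine, from 2.52, 2.59 and 2.54 FPKM to 3.55, 3.75 and 4.08. The reduced folate carrier Slc19a1, at 0.989, 1.33 and 1.36 FPKM and at 1.21, 1.26 and 1.22, did not pass (adjusted p = 0.69, edgeR), nor did Slc5a6, Slc52a2 and Slc52a3.

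The fatty acid carrier Slc27a1, at 0.331, 0.484 and 0.341 FPKM in cNK and 1.16, 1.21 and 1.26 in DN NK, is a member through DN NK alone. Slc16a6, the second most abundant gene of the class, was at 11.2, 9.81 and 12.5 FPKM and at 13.1, 12 and 14.3, with overlapping groups and a log2 fold change of 0.30 (adjusted p = 0.0288, edgeR). That call was lost in 8 of 15 alternatives, among them those without cNK replicates 1 or 2 and without DN NK replicates 1 or 3 (range 0.00289 to 0.0973), and Amz2 shares 23.5% of its exon bases. Downward, Slc27a4, which imports and activates long-chain fatty acids, fell from 5.17, 5.19 and 5.51 FPKM to 2.09, 2.18 and 2.73, a log2 fold change of -1.12 ± 0.10 SE (edgeR adjusted p = 3.39e-05). The urea carrier Slc14a1 fell from 12.2, 13.7 and 13 FPKM to 5.77, 6.14 and 7.08, a log2 fold change of -0.97 ± 0.08 SE (edgeR adjusted p = 1.61e-05). Slc44a2, a choline carrier and the most abundant gene of the class, fell from 16.4, 16.6 and 16.6 FPKM to 11.6, 12.7 and 13.3, a log2 fold change of -0.34. In these 3 genes the groups did not overlap.

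The gene-name rule also took in 6 rows that are not carriers, of which 2 rose and 1 fell, with 2 falling under upper-quartile scaling and 0 under median-ratio scaling. Slc9a3r1, a scaffold protein of the membrane cortex, was at 82.9, 81.7 and 79.1 FPKM in cNK and 76.9, 78.6 and 78.0 in DN NK, with a log2 fold change of -0.00 (adjusted p = 0.992, edgeR). Its paralogue Slc9a3r2 is a member through DN NK alone, at 0.912, 0.854 and 0.778 FPKM and at 2.72, 2.91 and 2.64. Slc7a6os rose from 12.4, 12.9 and 12.6 FPKM to 18.3, 17.4 and 17.3, a log2 fold change of 0.54, and lies 2010 bases from Slc7a6 on the other strand. Slc4a1ap fell by 0.29 on the log2 scale, a call lost in 6 of 15 alternatives, among them those without cNK replicates 2 or 3 and without DN NK replicates 2 or 3 (adjusted p from 0.0092 to 0.126). Without these 6 rows, 62 of 150 carriers rose and 46 fell.

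In some groups of paralogues the shares of the summed FPKM differed between cNK and DN NK. The groups shown were picked after their values were seen and are given without a test. Slc41a2 held 27.1 ± 1.61% of the Slc41 sum in cNK and 8.73 ± 1.35% in DN NK, while Slc41a1 went from 54.4 ± 0.721% to 77.5 ± 1.55% (n = 3 each, SD). Slc25a23 held 6.52 ± 0.563% of its sum with Slc25a24 in cNK and 22.3 ± 1.54% in DN NK. Of the 3 Slc27 fatty acid carriers, Slc27a4 held 75.7 ± 3.35% in cNK and 37.1 ± 2.23% in DN NK, while Slc27a6 went from 18.8% to 43.5%. The sums themselves were similar for Slc41, at 13.4 and 12.1 FPKM, and for Slc27, at 7.00 and 6.27 FPKM, but fell from 27.1 to 11.2 FPKM for the Slc25a23 and Slc25a24 pair. Slc35d1 held 17.7 ± 1.73% of its sum with Slc35d2 in cNK and 44.3 ± 3.15% in DN NK. Slc25a13 went from 9.54 ± 0.998% to 17.2 ± 1.92% of its sum with Slc25a12, and Slc44a1 from 9.45 ± 0.456% to 15.4 ± 0.993% of its sum with Slc44a2. Slc25a13, and Slc27a1 in the Slc27 sum, are members through DN NK alone, so the level that admitted them favours a larger share there. In other groups the leading paralogue did not lose share: Slc25a4 went from 11.3 ± 0.583% to 8.88 ± 0.0996% of its sum with Slc25a5. Slc38a2 held 75.6 ± 1.12% and 76.7 ± 3.19% of the Slc38 sum, and Slc35e1 held 79.8 ± 0.934% and 85.5 ± 0.556% of the Slc35e sum. Within Slc35e the minor Slc35e2 still went from 4.04 ± 0.926% to 9.07 ± 0.839%, while Slc35e3 and Slc35e4 lost share.

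**Figure D5:**
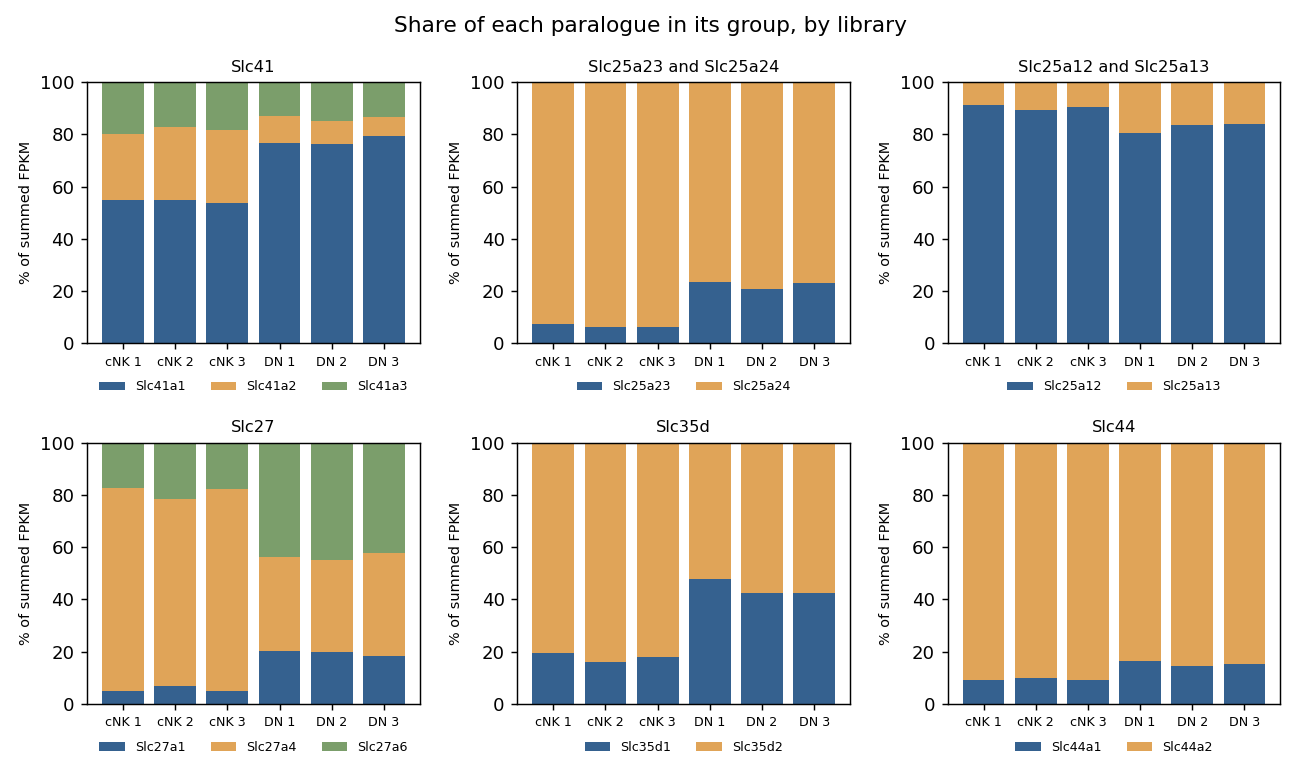
Share of each paralogue in the summed FPKM of its group (vertical axis, %), as stacked bars for each of the 3 cNK and 3 DN NK (DN 1 to DN 3) libraries. Slc25a23, Slc25a13, Slc35d1, Slc44a1, Slc27a1 and Slc27a6 take a larger share in all 3 DN NK libraries than in any cNK library, and Slc41a2 a smaller one. Slc25a13 and Slc27a1 are members through DN NK alone.

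By location in the cell, taken from the terms deposited with the table, counts can be set beside the 30.8% higher and 30.9% lower among all tested rows. Of 61 members with a plasma membrane term, 33 rose and 11 fell, with a median log2 fold change of 0.30. Of 31 with an inner mitochondrial membrane term, 5 rose and 15 fell, with a median of -0.21. Of 25 with a Golgi term, 6 rose and 11 fell, with a median of -0.26. The 19 with an endoplasmic reticulum term had 9 higher (47.4%) and 6 lower (31.6%). The 12 with a lysosome term had 4 higher and 4 lower, near the background. These terms overlap, the mitochondrial one largely repeats the Slc25 family, and no difference between them was tested.

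There were 7 pairs of members on the same chromosome with no more than 200 kb between them. Both genes rose in Slc38a1 and Slc38a2 and in Slc7a6 and Slc7a6os. In the pair of Slc22a5 and Slc22a21 the first rose and the second is a member through DN NK alone. Slc31a1 rose beside Slc31a2, whose lower call was lost in 3 alternatives. In the remaining 3 pairs 1 gene did not pass: Slc29a1 beside Slc35b2, Slc52a2 beside Slc39a4, and Slc36a3os beside Slc36a1.

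The 156 Slc rows below the level for members were low throughout, and tested without a filter 16 were higher and 7 lower in DN NK. In the same fit 4245 of all 27763 rows were higher and 4436 lower. Those rows include the 11690 at the level for members, so they are not a like background for rows below it. Slc15a3, a peptide and histidine carrier of lysosomes, was at 0.543, 0.282 and 0.416 FPKM in cNK and 1.54, 0.949 and 1.23 in DN NK. Its log2 fold change without a filter was 1.57 ± 0.26 SE (edgeR adjusted p = 0.00153). It was higher in all 3 DN NK libraries, as were most amino acid and peptide carriers above the level.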

How the data were processed

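Poly(A) RNA of 6 libraries, 3 per group, was sequenced as paired reads on a NovaSeq from TruSeq RNA v2 libraries, per the labels' protocols. HISAT, StringTie, edgeR and GRCm38 (mm10) are named in the submitters' processing notes, with no versions. The deposited table gives an FPKM value per gene and library, per the file headers, and a count. How these deposited counts were made is not given in the sources used here. They are whole numbers whose most common value above 0 is 4 in each library, so the deposited values were treated as estimated counts, with 4 taken as the worth of 1 read pair.

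Rows at 1 FPKM or more in at least 3 libraries (11690 rows, 99.26% of the counts) were fitted with edgeR 4.0.16 in R 4.3.3 (TMM factors 0.972 to 1.03, robust, group as the only term, 2-sided). Adjustment was by Benjamini-Hochberg at 0.05. Means and SDs of FPKM are not TMM-scaled. The script was tested on simulated data. A total of 15 alternatives was run, with DESeq2 1.42.0 and limma 3.58.1 (log2 of FPKM plus 1 or 0.1) among them. Substrate classes follow the gene family.

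Members, classes, marker lists and lists of other genes were chosen with earlier results of these data known. Genes named with values are 29 anchors; in each class up to 2 with the largest change each way, past the test and without overlap, and the 2 of highest level; and up to 3 per list of other genes. Others given with values were chosen after their values were seen. Overlap of exons was taken from the GENCODE M21 annotation, and promoters are from RefSeq (GRCm38.p6). A few anchors and other named genes are left out of the text.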

Additional observations from a re-analysis of the deposited data

How the results depend on the processing

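Of 111 called members, 89 kept their call in all 15 alternatives and 22 lost it in at least 1. None changed sign, and 21 of 45 others passed in at least 1. Members numbered 68 higher and 47 lower with DESeq2, 64 and 45 with median-ratio scaling, 57 and 59 with upper-quartile scaling (which shifted the median of all rows by -0.09), and 57 and 52 with no filter or with limma. Testing only rows with a mean of at least 5 FPKM left 69 members, 30 higher and 23 lower, and 6801 rows, 2278 higher and 2336 lower. In it 9 amino acid carriers were higher, 5 metal carriers higher and 1 lower, 3 ion carriers higher, 2 Slc25 carriers higher, 1 nucleoside carrier higher and 0 lower, 7 sugar carriers higher and 2 lower, 2 other carriers higher and 3 lower, and 1 row that is not a carrier higher. Of other genes, metal handling had 4 higher and 2 lower, and mitochondrial import 4 lower. With upper-quartile scaling 3 amino acid carriers, 7 ion carriers and 2 rows that are not carriers were lower, and 1 nucleoside carrier was higher. With no filter 5 ion carriers were lower and 1 nucleoside carrier higher, and with limma at either pseudocount 5 ion carriers were lower. Of rows that are not carriers, 0 were lower with median-ratio scaling and 0 with the replicate block. The cause of these shifts was not tested, apart from the smaller number of rows tested above 5 FPKM.

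Leaving out 1 library at a time gave 59 to 60 members higher and 39 to 43 lower, and 3287 to 3561 rows higher and 3259 to 3483 lower. The ranges were 12 to 14 higher and 0 to 1 lower for amino acid carriers, 9 to 10 and 8 to 9 for metal, 5 to 6 and 3 to 4 for ion, 4 to 5 and 11 to 13 for Slc25, 1 to 3 and 1 for nucleoside, 12 to 13 and 9 to 10 for sugar, 10 to 11 and 4 to 5 for other carriers, and 2 and 0 to 2 for rows that are not carriers. The replicate block, which pairs libraries by number, gave 63 members higher and 46 lower and 3585 and 3637 rows. Same-numbered libraries had correlations of 0.046, 0.036 and 0.162, and 4 of 6 correlated best with their own number. Correlations among 3 libraries per group cannot show whether same-numbered libraries are a true pair.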
